A study of Mus musculus with 2 samples.

Results

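The 10 genes described here, Fos, Fosb, Jun, Junb, Jund, Egr1, Atf3, Ier2, Ier5 and Nr4a1, are immediate-early transcription factor genes and close relatives, taken by symbol from the 27998 genes of both count matrices. All 10 were found, and all 10 passed the level minimum used below in each of the 3 cell classes. They were followed in single retinal cells that carry a Cx3cr1-YFP reporter. The reporter follows Cx3cr1, the gene of the fractalkine receptor, and is active in microglia (macrophages that reside in the retina) and in related macrophages. Both groups were male CB6F1 Cx3cr1-YFP mice aged 8 months. The control group, labelled as free of light damage, was compared with a group whose labels describe dark adaptation overnight, pupil dilation with atropine and phenylephrine, 4 h of LED light at 10 klux and 5 days of recovery. In each group the retinas of 5 to 8 mice were pooled and digested for 30 min at 37 °C with collagenase A (1.5 mg/ml) plus DNase I (0.4 mg/ml), and live YFP-positive cells were sorted into 1 library of the 10x Genomics 3′ end type. There were thus 1 library per group, no replicate and no test between the groups. Every interval below is a 95% interval that covers counting error alone and leaves out the spread between mice, pools and libraries. Intervals of ratios also leave out the spread between cells.

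Immediate-early genes are transcribed within minutes of a stimulus without needing new protein, from promoters at which factors such as CREB and the serum response factor already sit. Fos and Jun family proteins pair through leucine zippers to form the AP-1 transcription factor, and Egr1 and Nr4a1 carry zinc fingers that bind DNA. In microglia and other macrophages these genes answer growth factors, cytokines, pathogen products and stress. They also answer enzymatic digestion of tissue, so their level in a sorted cell can reflect both the tissue and the preparation. Heat-shock genes, which encode chaperones, are a second gene group known to answer such handling.

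The regulatory sequences of 5 of these genes are shown because the genes differ both in the response element most often tied to this class and in their level between the libraries. The 5 were chosen with these levels known, and a link between element and level was not tested. RefSeq promoter windows of GRCm38.p6, from 250 bases before to 50 bases after a gene's start, were present for 8 of the 10 genes, and Egr1 and Ier2 were not matched. RefSeq starts can differ from the GENCODE gene starts given further on. The Jund window lies upstream of its GENCODE start and is not shown, whereas those of Nr4a1 and Atf3 lie inside the GENCODE gene, at a start other than its first. Capitals mark TGACG or its reverse complement CGTCA, the core word of the cAMP response element to which CREB and ATF proteins bind.
Fos promoter (chr12:85473640-85473939, plus strand): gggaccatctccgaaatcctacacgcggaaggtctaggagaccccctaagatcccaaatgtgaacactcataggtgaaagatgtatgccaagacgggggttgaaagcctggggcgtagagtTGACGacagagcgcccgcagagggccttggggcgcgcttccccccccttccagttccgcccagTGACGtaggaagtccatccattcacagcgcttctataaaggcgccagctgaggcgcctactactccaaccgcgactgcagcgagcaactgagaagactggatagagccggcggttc
Junb promoter (chr8:84978699-84978998, minus strand): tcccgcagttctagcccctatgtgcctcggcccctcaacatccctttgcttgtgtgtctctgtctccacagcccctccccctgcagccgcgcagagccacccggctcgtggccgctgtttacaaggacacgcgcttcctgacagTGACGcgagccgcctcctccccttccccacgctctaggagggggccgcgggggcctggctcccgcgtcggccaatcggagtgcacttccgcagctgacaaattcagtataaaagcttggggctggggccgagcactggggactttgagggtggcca
Nr4a1 promoter (chr15:101266596-101266895, plus strand): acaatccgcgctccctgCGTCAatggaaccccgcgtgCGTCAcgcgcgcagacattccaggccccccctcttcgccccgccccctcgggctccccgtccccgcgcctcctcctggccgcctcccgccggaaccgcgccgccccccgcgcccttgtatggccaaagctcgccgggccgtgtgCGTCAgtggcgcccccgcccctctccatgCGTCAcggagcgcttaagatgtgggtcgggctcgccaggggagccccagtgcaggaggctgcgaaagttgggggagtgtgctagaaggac
Jun promoter (chr4:95052173-95052472, minus strand): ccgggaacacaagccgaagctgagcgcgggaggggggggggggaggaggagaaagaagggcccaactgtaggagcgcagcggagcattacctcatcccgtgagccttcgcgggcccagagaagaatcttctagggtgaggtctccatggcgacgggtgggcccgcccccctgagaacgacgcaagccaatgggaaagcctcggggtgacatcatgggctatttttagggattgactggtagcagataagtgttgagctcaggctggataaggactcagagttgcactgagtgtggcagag
Ier5 promoter (chr1:155099587-155099886, minus strand): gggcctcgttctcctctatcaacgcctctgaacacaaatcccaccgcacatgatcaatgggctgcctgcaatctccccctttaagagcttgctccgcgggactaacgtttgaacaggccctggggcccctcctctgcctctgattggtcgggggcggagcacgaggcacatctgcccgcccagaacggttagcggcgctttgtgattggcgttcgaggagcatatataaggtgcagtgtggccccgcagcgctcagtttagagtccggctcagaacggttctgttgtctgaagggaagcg
This core word stood in the windows of 5 of the 8 matched genes (Fos, Fosb, Junb, Atf3 and Nr4a1), against 20.8% of all 32851 promoter windows of the same length on either strand. Fos held it 129 and 66 bases before the start. Nr4a1 held it 4 times, at 233, 213, 69 and 40 bases before the start. Junb held it once, 106 bases before, and Jun and Ier5 did not have these letters in their windows. The full palindrome TGACGTCA, which contains the core word, was in 0 of the 8 windows and in 1.79% of all windows. The serum response factor's CArG box was likewise in 0 of the 8 and in 1.63% of all, and the AP-1 site TGACTCA or TGAGTCA in 0 of the 8 and in 5.20% of all. Sites more than 250 bases before a start lie outside these windows, and the 8 include the Jund window upstream of its GENCODE start. These counts therefore do not show that the genes lack such sites. A letter match describes the sequence and is no evidence of binding.

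The genes also share a sequence feature at the other end of the transcript. The word ATTTA, part of the AU-rich elements that bind mRNA-destabilizing proteins, occurred in the annotated 3′ untranslated region of 9 of the 10 genes, Ier2 being the exception. It occurred in 64.7% of 5156 protein-coding genes measured in microglia, whose untranslated regions differ in length. Fos and Jun had 4 such words each. The densest stretch of each is shown, with the words in capitals, because both transcripts carry them as a pair.
Fos: ttttattgtgttttcaATTTATTTA
Jun: cATTTAtaatcataggaaagATTTA

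The control matrix held 4003 cell barcodes and 20056338 UMIs, or unique molecular identifiers, each of which stands for 1 captured transcript. The light-damage matrix held 6821 barcodes and 58187149 UMIs. After filters on genes, mitochondrial share and doublets, 3820 and 6427 cells remained, and 42 of the barcodes kept occurred in both libraries. Cells were classed by summed markers per 10000 UMIs. Microglia had at least 20 UMIs of P2ry12, Tmem119, Siglech, Gpr34 and P2ry13, perivascular macrophages at least 10 of Mrc1, F13a1, Cd163, Lyve1 and Cbr2, and other macrophages under 10 of both sums. This gave 3374 control and 4385 light-damage microglia, 53 and 84 perivascular macrophages and 244 and 1171 other macrophages. Another 5 and 2 cells met both of the first rules, and 144 and 785 cells had a microglia sum from 10 to under 20 and entered no class. Cells just inside the microglia threshold, with a sum from 20 to under 25, numbered 81 and 403, and cells just outside, from 15 to under 20, numbered 63 and 357. For the perivascular threshold, 22 and 34 cells lay just inside and 69 and 57 just below it.

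Most markers of microglia that the rules did not use were higher in microglia than in the other classes, with Fcrls as an exception. Olfml3, a gene for a secreted protein that marks microglia, had a UMI in 95.5% of control and 98.8% of light-damage microglia. It stood at 1241 and 1439 CPM there, against 178 to 358 CPM in the other classes. Sall1, a transcription factor gene of microglial identity, was at 107 and 125 CPM in microglia and at 5.03 to 7.46 CPM in the other classes. Slc2a5 and Cx3cr1 were likewise highest in microglia of each library. Fcrls, a microglial Fc receptor-like gene, was at 66.4 CPM in control microglia against 633 and 283 CPM in perivascular and other macrophages, and at 287 against 535 and 341 CPM in light damage. CPM is the number of UMIs of a gene per 1000000 UMIs of the summed class. Pf4, a chemokine gene of border macrophages, stood at 1933 and 684 CPM in perivascular macrophages and at 14.1 and 3.23 CPM in microglia. In control other macrophages Pf4 was at 598 CPM. At least 10 UMIs per 10000 of the 5 perivascular markers outside the rule were found in 30.7% of control other macrophages. In light damage the share was 5.04%. The part of this difference in the ratios of other macrophages was not tested. The class of other macrophages was less uniform in the control library. Only 61.5% of its control cells had at least 10 UMIs per 10000 of 8 macrophage markers, against 93.5% in light damage, and its 6 rod photoreceptor markers summed to 15034 CPM in control and 318 in light damage. In the same class, Mueller glia markers summed to 1480 and 273 CPM in control and light damage, and bipolar cell markers to 435 and 33.3. Endothelium markers summed there to 287 and 37.9 CPM and erythrocyte markers to 127 and 0. Mueller glia markers also summed to 857 and 655 CPM in microglia. Neutrophil markers summed to at most 6.28 CPM in any class, T and NK cell markers to at most 7.46 and B-cell markers to at most 0.0784. In control microglia 25.6% of cells had a rod marker sum of at least 5 per 10000, against 2.08% in light damage. Depth, mitochondrial share and heat-shock level also differed between the libraries within microglia. Median depth was 4779.5 and 6775 UMIs per cell, the median mitochondrial share was 1.55% and 2.61%, and the median heat-shock sum was 180 and 111 UMIs per 10000 in control and light damage.

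In microglia the 10 genes together made up 1.11% of all control UMIs and 0.614% of all light-damage UMIs. Their sum was 11074 CPM and 6139 CPM, 1.80-fold lower after light damage. The ratio was 0.554, with an interval from 0.551 to 0.558. Ier5, Jund, Jun, Atf3 and Junb were each over 1.5-fold lower, and none of the 10 was over 1.5-fold higher. Over the 5224 genes with at least 20 CPM in either library, 6.7% were over 1.5-fold lower and 5.42% over 1.5-fold higher. The median log2 ratio of the 10 genes was -0.45, and that of all measured genes was -0.02. Junb and Atf3 lay close to the 1.5-fold limit and did not pass it in cells thinned to 2700 UMIs, at ratios of 0.714 and 0.681. The part that the differences in depth, rod transcripts and mitochondrial share had in these values was not tested. Values at matched heat-shock level are given further on.

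**Figure D1:**
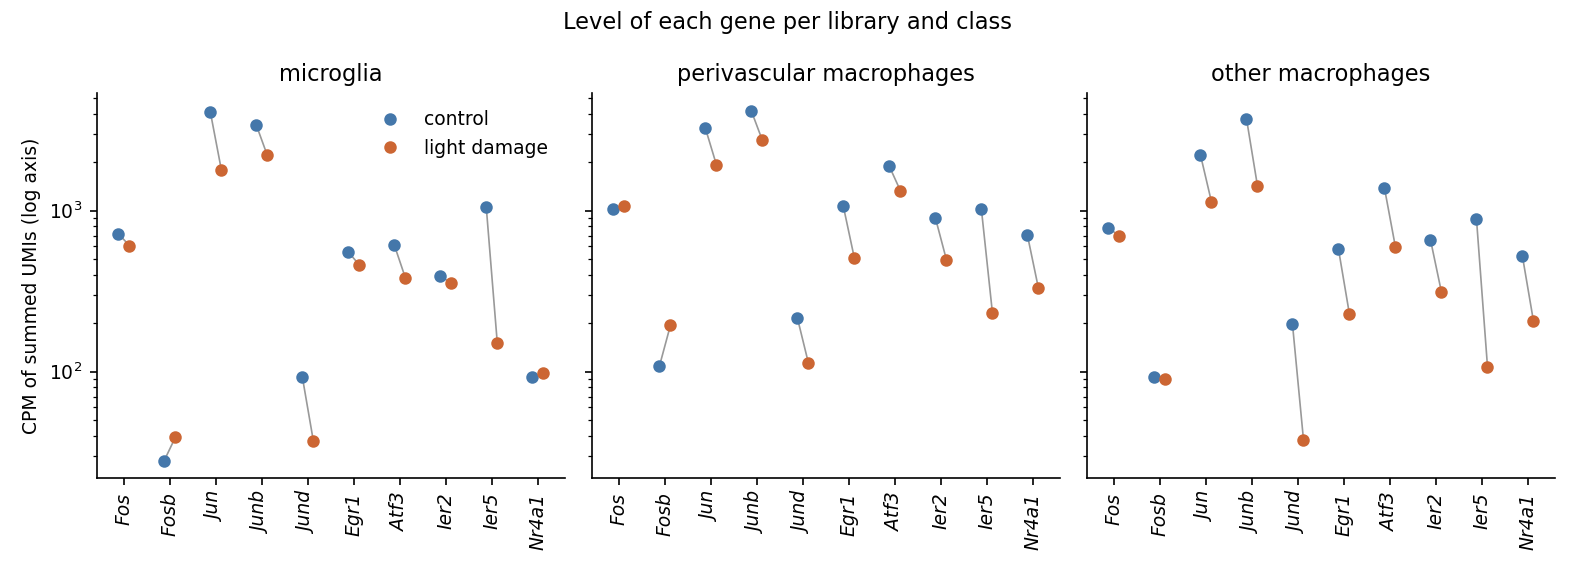
Level of each of the 10 genes in the 3 cell classes, as CPM of summed UMIs on a log axis, for the control and the light-damage library. Ier5 has the widest gap in every class (1049 against 150 CPM in microglia), and Fos one of the narrowest (721 against 607 CPM).

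Fos family genes encode AP-1 subunits that need a Jun partner to bind DNA. Fos itself stood at 721 CPM in control microglia and 607 CPM in light-damage microglia, a ratio of 0.842 (0.823 to 0.862). In perivascular macrophages it was at 1024 and 1067 CPM, and in other macrophages at 785 and 693 CPM. The 6 Fos levels thus spanned a small range, and in perivascular macrophages the interval of the ratio, 0.922 to 1.18, included 1. Fosb, a relative of Fos, had the fewest UMIs of the set in control microglia, 463 UMIs or 28.0 CPM, and stood at 39.0 CPM after light damage, a ratio of 1.39 (1.25 to 1.55). It was at 108 and 193 CPM in perivascular macrophages, a ratio of 1.79 (1.26 to 2.61) that rested on 40 control and 154 light-damage UMIs. In other macrophages it was at 92.5 and 89.3 CPM, a ratio of 0.966 (0.802 to 1.17). Fosb was thus the only gene of the 10 that passed 1.5-fold higher in any class, and it did so in perivascular macrophages alone.

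Jun family genes encode AP-1 subunits that can pair with each other or with Fos proteins. Jun had the most UMIs of the set in control microglia, and was at 4123 CPM in control and 1801 CPM in light damage, 2.29-fold lower (interval of the ratio 0.432 to 0.442). It was at 3259 and 1930 CPM in perivascular macrophages and at 2222 and 1133 CPM in other macrophages, 1.69-fold and 1.96-fold lower. Over all cells of each class the light-damage level of Jun lay below the control level by more than its counting interval. With stricter class thresholds its ratio was 0.944 in perivascular and 1.03 in other macrophages, and it was 1.26 in other macrophages of low heat-shock level. Junb, whose protein can hold back activation by Jun, was at 3410 and 2207 CPM in microglia, 1.55-fold lower. It was at 4165 and 2733 CPM in perivascular macrophages and at 3738 and 1424 CPM in other macrophages. Its ratio was alike in microglia and perivascular macrophages, at 0.647 and 0.656, and lower in other macrophages, at 0.381. Jund, usually described as the most constant Jun gene, stood at 93.1 and 37.2 CPM in microglia, 2.50-fold lower (ratio interval 0.370 to 0.431). In perivascular macrophages it was at 216 and 113 CPM, and in other macrophages at 198 and 37.6 CPM, 5.25-fold lower. After light damage Jund was at nearly one level in microglia and other macrophages, with a ratio between those classes of 1.01 (0.909 to 1.13).

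Egr1 encodes a zinc-finger factor that binds GC-rich sites. It was at 554 CPM in control and 460 CPM in light-damage microglia, a ratio of 0.830 (0.809 to 0.852). It was at 1062 and 506 CPM in perivascular macrophages and at 577 and 226 CPM in other macrophages, 2.10-fold and 2.55-fold lower. The gap between the libraries was thus wider outside microglia over all cells. In cells at or under the median heat-shock level of the class, the Egr1 ratio was 1.06 in perivascular macrophages and 0.983 in microglia. It was 0.803 in other macrophages. The wider gap thus did not hold in perivascular macrophages, of which that setting left 16 control cells. The class medians differed, at 380 UMIs per 10000 in perivascular macrophages, 123 in other macrophages and 137 in microglia. Atf3, a stress-induced factor of the ATF/CREB family that pairs with Jun proteins, was at 613 and 383 CPM in microglia, 1.60-fold lower. It was at 1884 and 1331 CPM in perivascular macrophages, a ratio of 0.706 that did not pass 1.5-fold, and at 1382 and 592 CPM in other macrophages. Nr4a1, an orphan nuclear receptor, was at 91.9 and 98.0 CPM in microglia, a ratio of 1.07 (1.003 to 1.13). It was at 706 and 330 CPM in perivascular macrophages and at 520 and 205 CPM in other macrophages, 2.14-fold and 2.53-fold lower. Nr4a1 thus had near-equal levels in microglia of both libraries and lower light-damage levels in the other classes. With both class thresholds set higher, at a marker sum of 20 per 10000 for the perivascular class, its ratio there was 1.08, and in other macrophages of low heat-shock level it was 1.06.

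Ier2 and Ier5 encode short nuclear proteins of the immediate-early response, and Ier5 is known as a partner of the heat-shock factor HSF1. Ier2 was at 391 and 357 CPM in microglia, a ratio of 0.912 (0.885 to 0.941). It was at 903 and 496 CPM in perivascular macrophages and at 660 and 311 CPM in other macrophages. Ier5 was at 1049 CPM in control microglia and 150 CPM in light-damage microglia, 7.01-fold lower (6.79 to 7.23). Ier5 was at 1024 and 232 CPM in perivascular macrophages, 4.41-fold lower, and at 890 and 107 CPM in other macrophages, 8.30-fold lower. Its 3 control levels lay between 890 and 1049 CPM and its 3 light-damage levels between 107 and 232 CPM. The 3 classes of a library come from 1 pool and are not replicates. Without Ier5, the sum of the other 9 genes in microglia was 10025 and 5989 CPM, 1.67-fold lower. Without Jun and Junb, which together held most of the UMIs, the sum was 3541 and 2131 CPM, 1.66-fold lower.

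**Figure D2:**
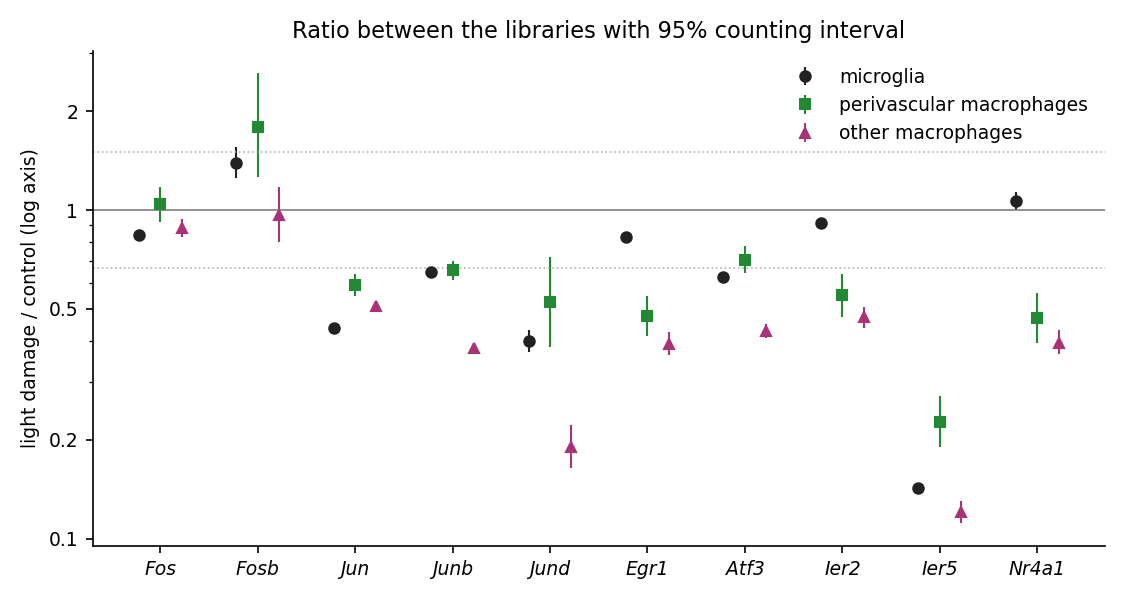
Ratio of the light-damage level to the control level for each gene and class on a log axis, with bars for the 95% counting interval. Ier5 is lowest in all 3 classes, at 0.143, 0.227 and 0.120, while Nr4a1 lies at 1.07 in microglia and at 0.468 and 0.395 in the other classes.

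In perivascular macrophages 7 of the 10 genes were over 1.5-fold lower after light damage and 1, Fosb, was over 1.5-fold higher. Among the 5020 genes measured there, 16.1% were over 1.5-fold lower and 21.1% higher. Both shares were above those in microglia. The count was 3 lower with stricter class thresholds and 4 at or under the median heat-shock level, and Fosb no longer passed 1.5-fold in thinned cells, at 1.49, or in cells with few rod UMIs, at 1.42. In other macrophages 8 of the 10 were over 1.5-fold lower and 0 higher, beside 28.4% lower and 22.9% higher of 5861 genes. Fos and Fosb were the 2 genes that did not pass there. The median log2 ratio of the 10 genes was -0.81 in perivascular macrophages, where that of all measured genes was 0.08, and -1.28 in other macrophages, where that of all was -0.01. The summed level was 14351 and 8932 CPM in perivascular macrophages, a ratio of 0.622 (0.601 to 0.645), and 11064 and 4818 CPM in other macrophages, a ratio of 0.435 (0.428 to 0.443). The median heat-shock sum of the same cells was 752 and 264 UMIs per 10000 in perivascular macrophages and 267 and 116 in other macrophages.

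Because control cells of the class of other macrophages often carried rod transcripts, the comparison was repeated in cells with at least 10 UMIs per 10000 of macrophage markers and a rod sum under 5, which left 85 control and 1075 light-damage cells. This restriction was chosen after the data had been seen. All 8 genes stayed over 1.5-fold lower there, and the gaps were wider, 11.1-fold for Ier5, 7.37-fold for Jund and 3.67-fold for Junb. The share of all measured genes over 1.5-fold lower in these cells was not computed, so neither this count nor the wider gaps are read. Fos and Fosb, at ratios of 0.733 and 0.877, again did not pass 1.5-fold. In other macrophages at or under the median heat-shock level the order turned for the sum of the 10 genes, to a ratio of 1.12, while Ier5 stayed at 0.303. Of the 100 control cells in that group, 21% had a macrophage marker sum of at least 10 and 68% a rod sum of at least 5, against 93.9% and 1.97% of 608 light-damage cells.

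The difference of the log2 ratios between classes was set beside its counting interval. For Nr4a1 the log2 ratio was 1.19 lower in perivascular macrophages than in microglia, as a difference of -1.19 (-1.45 to -0.93), and the difference was -1.43 (-1.58 to -1.28) for other macrophages. For Egr1 these differences were -0.80 and -1.08, and for Ier2 -0.73 and -0.95, all with intervals below 0. A single control perivascular cell held 124 of the 335 Ier2 UMIs of its class, and the highest Egr1 count was 72 of 394. In perivascular macrophages at or under the median heat-shock level the ratios of Egr1 and Ier2 were instead 1.06 and 1.998. Junb differed by 0.02 (-0.08 to 0.12) between perivascular macrophages and microglia. For Fos, other macrophages and microglia differed by 0.07 (-0.03 to 0.17). The ratios over all cells therefore differed between classes by more than counting error for some genes. The spread between cells is not in these intervals, and with 1 library per group the spread that separate pools would give is unknown.

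Within each library, several of the genes were higher in the macrophage classes than in microglia. Nr4a1 was 7.68 times its microglial level in control perivascular macrophages and 3.37 times in light-damage ones, and 5.66 and 2.10 times in other macrophages. Fosb was 3.85 and 4.96 times its microglial level in perivascular macrophages, and Atf3 3.08 and 3.47 times. Jun went the other way in other macrophages, at 0.539 and 0.629 of its microglial level. Egr1 was at nearly the same level in control other macrophages as in control microglia, 1.04 (0.967 to 1.12), and at 0.492 after light damage. Ier5 did not differ beyond counting error between control perivascular macrophages and control microglia, at 0.976 (0.879 to 1.08). The heat-shock sum was higher in the macrophage classes as well, as given above, and its part in these class differences was not tested.

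The share of cells with at least 1 UMI was compared after each cell had been thinned to 2700 UMIs, which left out 439 control and 0 light-damage microglia. Ier5 had a UMI in 77.0% of 2935 control microglia (75.5 to 78.5) and in 29.9% of 4385 light-damage microglia. Without thinning the shares were 86.3% and 51.4%. Jun was seen in 86.4% and 69.0% of thinned cells and Junb in 87.5% and 80.9%. Shares of these 3 genes lay far above the share with Gngt1, a rod transducin subunit gene that microglia do not express, which was 13.4% in control and 2.28% in light damage (22.1% and 4.47% without thinning). Atf3 was seen in 46.7% and 33.6%, Egr1 in 52.5% and 46.2%, Fos in 44.7% and 43.3% and Ier2 in 40.8% and 38.2%. Control shares of Jund at 19.8%, Nr4a1 at 15.8% and Fosb at 5.997% lay near or below that of Gngt1, so they are not read as the share of cells that express these genes. In perivascular macrophages, with median depths of 7059 and 9318.5 UMIs, Ier5 was seen in 74.5% of 47 control cells and 39.3% of 84 light-damage cells after thinning, beside 19.1% and 15.5% for Gngt1. In other macrophages, with median depths of 5230 and 9809 UMIs, Ier5 was seen in 69.4% of 180 and 25.9% of 1171 cells. Nr4a1 was seen there in 47.2% and 27.5%, and Gngt1 in 21.1% and 3.50%. Rod genes differ in level, so the control share of Nr4a1 in this class is not read as expression. None of the 3 classes lacks immediate-early genes, so no class gave a direct background for them.

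**Figure D3:**
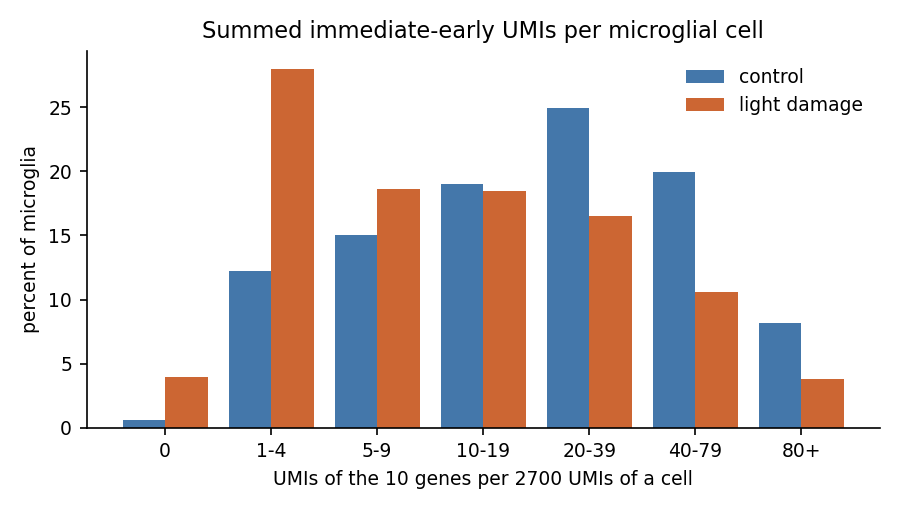
Percent of microglia of each library by the summed UMIs of the 10 genes among 2700 UMIs drawn from each cell. Control cells have a median sum of 21 and light-damage cells a median of 9, and both libraries have cells in every bin from 0 to 80 or more.

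Single microglia varied widely around these means. Among 2700 UMIs, the 10 genes gave a median of 21 UMIs in control cells, with the lowest 10% at 4 or fewer and the highest 10% at 74 or more. The median was 9 in light-damage cells, with 1 or fewer and 49 or more at the same ends. A control cell had a UMI of 5 of the 10 genes at the median and a light-damage cell of 3. None of the 10 was seen in 0.647% of control and 3.99% of light-damage cells, and at least 7 were seen in 21.1% and 14.5%. The 10% of cells with most UMIs held 34.4% of the summed UMIs in control and 42.0% in light damage. For Fos the top 10% of cells held 63.3% and 60.02% of its UMIs, for Jun 41.9% and 55.3% and for Ier5 38.9% and 55.6%. This share rises by counting alone when a mean falls, and the mean of Ier5 was 2.96 UMIs per thinned cell in control and 0.448 in light damage and that of Jun 12.1 and 5.90. Evenness is therefore not compared between the libraries. In the light-damage library the median cell had 0 UMIs of Ier5, against 2 in control.

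Over the thinned microglia the genes rose and fell together to a modest degree. All 45 pairs had a positive Spearman correlation in each library, with a median of 0.245 in control, from 0.0785 to 0.453, and of 0.265 in light damage, from 0.0523 to 0.502. Cells of a library share its depth and preparation, and the values are descriptions over 2935 and 4385 cells. By the lower of the correlations of the 2 libraries, Egr1 was the closest partner of Fos, Jun, Junb, Atf3 and Ier2, with 0.453 and 0.502 for Jun and 0.420 and 0.485 for Fos. Ier5 was closest to Junb, at 0.396 and 0.296, and Nr4a1 to Atf3, at 0.246 and 0.318. Fosb was closest to Fos, at 0.213 and 0.265. Jund, sparse in both libraries, had at most 0.148 with any other gene of the set, too weak to read.

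**Figure D4:**
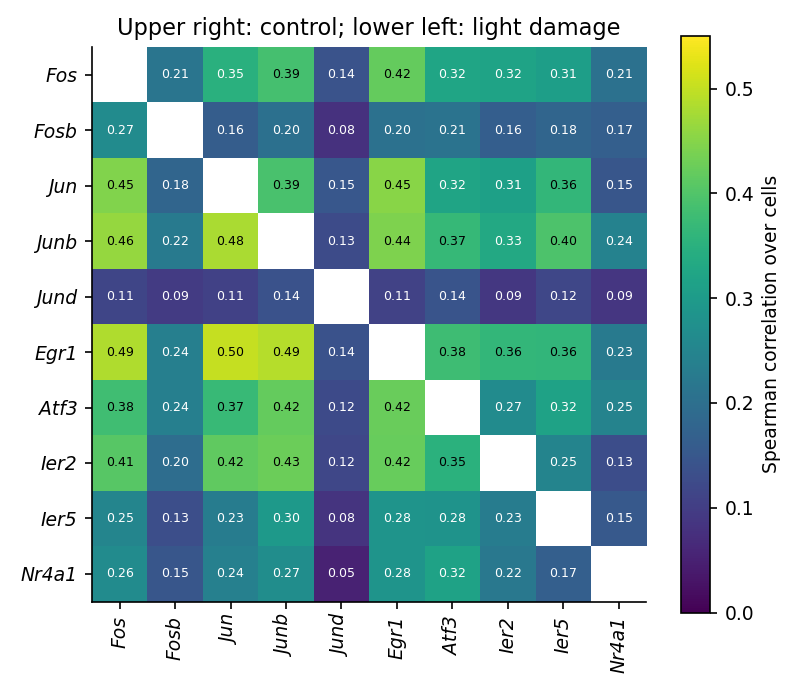
Spearman correlation over microglia, thinned to 2700 UMIs, for each pair of the 10 genes, with control above the diagonal and light damage below. The strongest pair in both libraries is Jun with Egr1, at 0.453 and 0.502.

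Of the 10 genes outside the set whose level over microglia was most like the sum of the 10, 5 were heat-shock genes of the list used here. Of 1121 genes with at least 100 CPM in both libraries, ranked by the lower of the correlations of the libraries, Hspa1a led at 0.521, followed by Hsp90aa1 at 0.497. Nfkbia, which encodes an inhibitor of NF-kappaB, had 0.495 and Hspa8 0.456. Hmox1, Klf6, Ppp1r15a, Dnaja1 and Dnajb1 were also among the 10 most alike, from 0.412 down to 0.388. The median over all these genes was -0.0533. The sum of the 10 genes had a correlation of 0.628 in control and 0.615 in light damage with the summed heat-shock genes. It had -0.268 and -0.228 with the mitochondrial share, -0.200 and -0.214 with the total UMIs of the cell, 0.0559 and 0.0257 with the rod sum and -0.0678 and -0.0286 with the microglia marker sum.

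Because the heat-shock sum differed between the libraries and moved with the 10 genes, microglia of both libraries were divided into 4 ranges of that sum with common limits at 70.3, 137 and 276 UMIs per 10000. Control cells filled them with 19.5%, 19.8%, 27.6% and 33.0% of microglia and light-damage cells with 29.2%, 29.0%, 23.0% and 18.8%. From the lowest to the highest range, the summed level of the 10 genes was 4572, 6306, 9269 and 20748 CPM in control. It was 2482, 3697, 6883 and 17713 CPM in light damage. The sum was thus lower in light damage in all 4 ranges, with ratios of 0.543, 0.586, 0.743 and 0.854, so that the gap narrowed as the heat-shock level rose. Preparation and light damage cannot be told apart in this division.

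The genes separated within these ranges. Ier5 was 6.97-fold, 6.66-fold, 5.27-fold and 5.13-fold lower in light damage from the lowest to the highest range, and Jund 2.16-fold, 2.56-fold, 1.77-fold and 2.12-fold lower. Jun was lower in all 4, with ratios of 0.411, 0.398, 0.555 and 0.748. Junb had ratios of 0.577, 0.717, 0.857 and 0.954 and Atf3 of 0.586, 0.811, 1.06 and 0.966, so that in the upper ranges both stood at near-equal levels in the libraries. Fos was not lower in any range, with ratios of 1.34, 1.16, 1.28 and 1.08, although its level over all microglia was 0.842 of control. Egr1 had a ratio of 0.952 in the lowest range and ratios of 1.02, 1.16 and 1.25 in the ranges above it. Fosb had ratios of 3.46, 2.83, 1.98 and 1.47, the lowest range resting on 20 control UMIs. Nr4a1 had ratios of 0.977, 1.18, 1.87 and 1.51, and Ier2 of 1.08 to 1.24. Ier5, Jund, Jun and Junb were thus below control in all 4 ranges, and Ier5 and Jund were over 1.5-fold lower in each. The share of all measured genes that did the same was not computed, so this count is not read. For Fos the order of the libraries depended on whether cells were compared at a like heat-shock level.

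**Figure D5:**
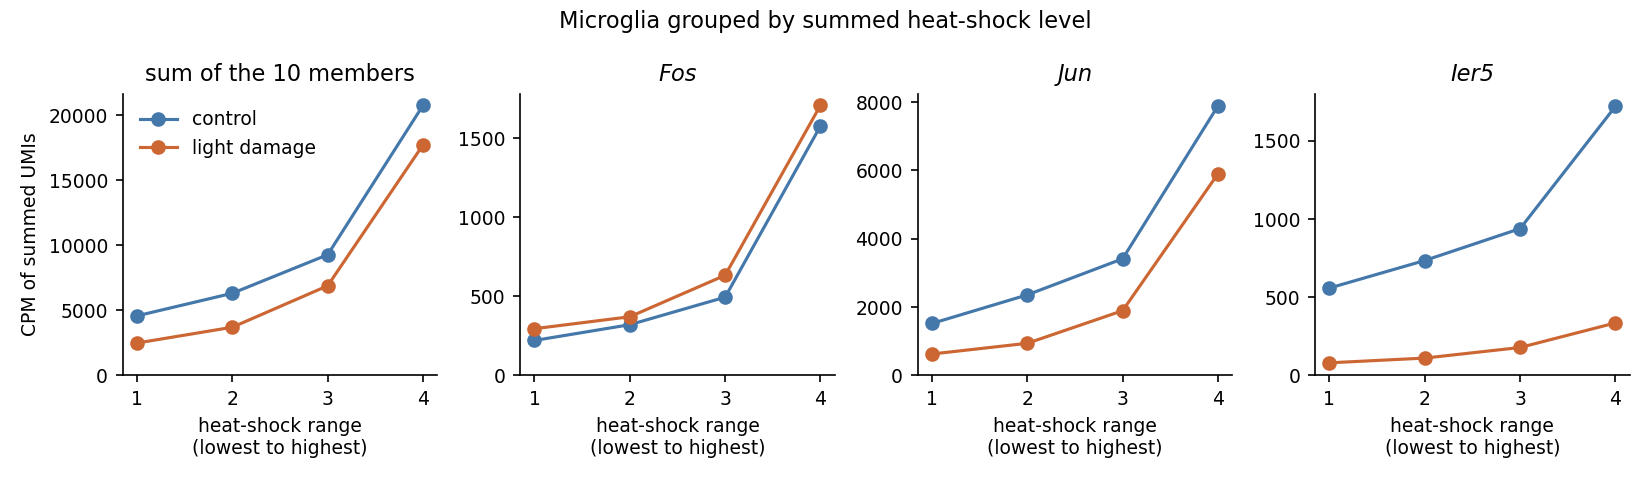
CPM of summed UMIs in microglia divided into 4 ranges of summed heat-shock level with the same limits in both libraries, for the sum of the 10 genes and for single genes. Levels rise with the range in both libraries, and the Ier5 level of light damage stays below control in each (335 against 1722 CPM in the highest range).

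Microglia were also divided by their marker sum, which was lower in the light-damage library at a median of 41.2 against 66.0 per 10000. In control the summed level of the 10 genes was 14636 CPM in cells with a marker sum from 20 to under 40, 10863 CPM from 40 to under 60, 10362 CPM from 60 to under 80 and 10304 CPM from 80 upward. In light damage it was 6278, 5854, 6265 and 7172 CPM. The control level was thus highest in the cells with the fewest microglia markers, and the light-damage level had no such order. The median heat-shock sum moved the same way, at 276, 185, 176 and 159 UMIs per 10000 in control and 113, 109, 114 and 129 in light damage, and its part in this order was not tested. Within control, Fos was at 1304, 762, 599 and 511 CPM along these ranges and Nr4a1 at 198, 96.0, 70.7 and 56.7 CPM. Jun in contrast was at 4091, 3653, 4242 and 4559 CPM, and Ier5 at 1269, 1000.1, 987 and 1066 CPM. Light-damage Ier5 was between 136 and 173 CPM in all 4 ranges, below control in each. In the range from 40 to under 60 the Fos ratio was 0.753, the Nr4a1 ratio 0.793 and the Fosb ratio 0.871, each below its value over all microglia.

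Most of the genes with wide gaps in microglia have no intron. Jun, Junb, Jund, Ier2 and Ier5 have 1 exon in the GENCODE M21 annotation, and 4 of these 5 were over 1.5-fold lower, all but Ier2. Fos, Fosb, Egr1, Atf3 and Nr4a1 have 2 or more exons, and 1 of these 5, Atf3, was over 1.5-fold lower. The median log2 ratio was -1.19 for the first group and -0.25 for the second. Among all measured protein-coding genes, 32.4% of the 108 with 1 exon and 5.57% of the 5048 with more were over 1.5-fold lower. Leaving out predicted, pseudogene-like and ribosomal protein names and the members themselves, 18.5% of 81 genes with 1 exon were lower and 14.8% higher. The exon number was looked at after the ratios had been seen, and what single-exon genes share in these libraries was not tested.

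On GRCm38, Ier5 spans bases 155096361 to 155099636 of chromosome 1, minus strand, as 1 exon of 3276 bases. Jun spans chromosome 4 from 95049034 to 95052222, Junb on chromosome 8 from 84974484 to 84978718, and Fos on chromosome 12 from 85473890 to 85477273. Jun, Junb, Jund and Atf3 overlap a gene on the other strand (Junos, Prdx2, Gm11175 and Gm24748). The strand setting of the counting is not given in the sources used here, so reads of these partners cannot be told apart with certainty. Ier5, Fos, Fosb, Egr1, Ier2 and Nr4a1 overlap no annotated gene.

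The other genes of the response were taken from lists chosen with earlier results of these data known, and were compared in microglia by the same 1.5-fold rule. Over all 5224 genes measured, 6.7% were lower and 5.42% higher. Of 15 measured genes of the other AP-1, Maf and ATF/CREB families, 1 was lower and 0 higher, with a median log2 ratio of -0.24. That count is near the share of all genes and is not read. Of 15 other immediate-early regulators, which share Maff with the first list, 5 were lower and 0 higher, with a median of -0.50. With no level minimum, 5 of 21 were lower and 2 higher, with a median of -0.20. Of all 14922 genes then measured, 3139 were lower and 1626 higher, with a median of -0.07. These regulators were led by Klf2, at 3.14-fold, Myc at 2.57-fold and Btg1 at 2.33-fold lower. These lists sat below the -0.02 of all genes, as did the 10 genes themselves.

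Genes that damp the response were mixed. Of 16 feedback inhibitors, 4 were lower and 1 higher, beside 6.7% and 5.42% of all genes, with a median of -0.25. Gadd45g, a stress-sensor gene, was 3.08-fold lower, Zfp36l2, which encodes a protein that binds AU-rich elements, 2.50-fold, and Rgs1, which encodes a brake on G-protein signalling, 1.75-fold. Dusp1, the phosphatase gene usually induced with Fos, had a ratio of 0.803, and Zfp36, which encodes a destabilizer of AU-rich transcripts, 0.886. Of 11 upstream kinase and serum response factor genes, 1 was lower (Mapk14, 1.69-fold, encoding p38) and 1 higher (Rps6ka3, with a ratio of 1.59), with a median of 0.09. The genes upstream thus lay near the median of all genes, and their counts, near the shares of all genes, are not read. Of 14 heat-shock genes, 3 were lower and 0 higher beside the same shares, with a median of -0.40. Their sum was 24911 and 17065 CPM. Dnaja1 was 1.84-fold, Hspa1a 1.76-fold and Hsp90aa1 1.57-fold lower.

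Of 10 measured early cytokine and chemokine genes, 1 was lower and 1 higher, with a median of -0.17, beside the 6.7% and 5.42% of all genes given above. Such a count is near the background and is not read. With no level minimum the median of this list was -0.03. Ccl12, a monocyte-attracting chemokine gene, had a ratio of 3.82, while Ccl3 was 1.59-fold lower. Tnf and Il1b, chosen for mention after their values were seen, had ratios of 1.29 and 1.32. Of 9 reference genes, 3 were higher and 1, Pgk1, was 4.28-fold lower, with a median of 0.22. Pgk1, at 28.0 and 6.55 CPM, was the only one of these with a gap wider than that of Jun.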

How the data were processed

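Retinal cells sorted for Cx3cr1-YFP were measured in 1 control and 1 light-damage library. The authors deposited, per library, a matrix of UMI counts per gene and barcode, which held whole numbers and was not normalized. Cell Ranger 2.0.0 and the build mm10 are named in the submitters' processing notes, and further steps are not given in the sources. Members and lists were chosen with earlier results of these data known.

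A barcode was kept with 300 or more genes and a mitochondrial share of no more than 10%. Scrublet, as included in scanpy 1.11.5, marked 0 and 1 doublets by its own threshold, so the highest scores were removed instead, at 0.8% per 1000 barcodes (128 and 372). The 3 classes followed summed markers per 10000 UMIs. Counts were summed per library and class and given as CPM. Ratios of light damage over control have exact 95% intervals for 2 Poisson counts, and shares have exact Clopper-Pearson intervals. With 1 library per group no p-value was computed, and "over 1.5-fold" is a size, not a test. Genes of at least 20 CPM in either library were compared. Shares, spread and Spearman correlations used cells thinned to 2700 UMIs. Named genes were the 10 members, up to 3 genes per list with the largest log2 ratio, the 10 most alike non-members and each member's closest partner; Dusp1, Zfp36, Tnf, Il1b and the background gene Gngt1 were added after their values were seen, and a few genes under this rule are not reported here. Alternatives covered class thresholds, depth, mitochondrial share, scaling, the level minimum, rod and heat-shock level. Interval code was tested on simulated data.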

Additional observations from a re-analysis of the deposited data

Results flagged for a closer look

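Nr4a1, the orphan nuclear receptor gene, had a ratio of light damage over control of 1.07 in microglia and of 0.468 in perivascular macrophages. It was noted because the libraries were ordered in opposite ways in these classes. Against other macrophages the same held, with 1.07 in microglia and 0.395. With 1 library per group the difference between classes was not tested. Its counting interval covers the UMIs alone. The microglial ratio lay close to 1 and fell below 1 in 2 of 14 alternatives, with a lowest value of 0.793. The perivascular ratio passed to 1.08 with stricter class thresholds, and that of other macrophages to 1.06 in cells at or under the median heat-shock level.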

How the results depend on the processing

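In microglia 14 alternatives gave 140 gene ratios, of which 130 stayed on the same side of the 1.5-fold limits, and none of the 5 genes over 1.5-fold lower crossed 1. In perivascular macrophages 104 of 120 and in other macrophages 119 of 130 stayed, and 3 and 5 values of genes past 1.5-fold crossed 1. Ier5 and Jund were over 1.5-fold lower in every alternative and class, with Ier5 ratios of 0.136 to 0.168 in microglia, 0.196 to 0.319 in perivascular and 0.0897 to 0.303 in other macrophages.

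The microglial ratio of the sum was 0.569 with stricter class thresholds, 0.566 with at least 3000 UMIs, 0.604 thinned, 0.591 as a mean over cells, 0.560 with median-of-ratios scaling, 0.536 without the 50 most abundant genes, 0.570 with a rod sum under 5, 0.563 at or under the median heat-shock level, 0.539 at a marker sum of 40 to under 60 and 0.670 as the mean over 4 heat-shock ranges. The last 2 were chosen after seeing the data. Genes over 1.5-fold lower numbered 3 when thinned, as a mean over cells and over the heat-shock ranges, and 1 gene, Fosb, was over 1.5-fold higher at low heat-shock level and over those ranges. The perivascular sum ratio was 0.785 with stricter thresholds, 0.648 with cells of both rules kept, 0.549 thinned, 0.726 with few rod UMIs and 0.784 at low heat-shock level. There 3 genes were lower with stricter thresholds and 4 at low heat-shock level, and the higher ones numbered 0 when thinned or with few rod UMIs and 3 at low heat-shock level. The other-macrophage sum ratio was 0.623 with stricter thresholds, 0.371 at no more than 5% mitochondrial UMIs, 0.405 both with at least 3000 UMIs and with median-of-ratios scaling, 0.559 as a mean over cells, 0.400 with few rod UMIs and 0.330 with macrophage markers required. It was 1.12 at low heat-shock level, where 2 genes were lower and 2 higher; 2 were also higher with stricter thresholds.

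Ratios crossed 1 for Egr1 at 1.06 and Ier2 at 1.998 in perivascular macrophages of low heat-shock level, and for Nr4a1 at 1.08 under stricter thresholds. In other macrophages Jun reached 1.03 with stricter thresholds, and at low heat-shock level Jun reached 1.26, Atf3 1.12, Ier2 1.40 and Nr4a1 1.06. That setting left 100 control cells of other macrophages, of which 21% had macrophage markers and 68% a rod sum of at least 5, and 16 control perivascular cells. The cause was not tested. Median-of-ratios scaling moved all ratios of other macrophages by 0.10 on the log2 scale.

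No paired analysis was possible because each group has 1 library. Pools, processing order and time before lysis cannot be told apart from light damage here, and the classes of 53 and 84 perivascular cells limit what can be read there.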

Other observations

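Cells with a microglia marker sum from 10 to under 20 per 10000 belonged to no class. In the 144 control cells of this kind the 10 genes summed to 16992 CPM, above the 14636 CPM of control microglia with the lowest marker sums and the 11064 CPM of control other macrophages. Atf3 stood at 2293 CPM there, against 1472 and 1382 CPM in those groups. Fos was at 1485 CPM and Ier5 at 1506 CPM. The median heat-shock sum of these control cells was 447 UMIs per 10000, against 276 and 267. In the 785 light-damage cells of the same marker range the 10 genes summed to 5575 CPM, Ier5 was at 151 CPM, and the heat-shock sum had a median of 110.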
